A study of Homo sapiens with 12 samples.

Results

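Ribosome biogenesis is the making of ribosomes from ribosomal RNA (rRNA) and ribosomal proteins, and most of it takes place in the nucleolus. A list of 37 genes whose products act there was followed across 4 lines of the human multiple myeloma cell line KMS11, and all probes of these genes were taken whatever they showed. No probe was named here for GNL3, WDR43, DDX18 and EBNA1BP2, and the probe of WDR3 was not detected on any array. This left 32 genes among 9857 tested. Total RNA of each line had been labelled and hybridised to Illumina bead arrays, 3 arrays per line and 12 in all. KMS11 carries the t(4;14) translocation, which overexpresses the histone methyltransferase MMSET (gene NSD2) from 1 allele. In NTKO cells the wild-type allele of MMSET was inactivated and the overexpressed one kept. In TKO cells the overexpressed allele was inactivated, and they come as 2 lines, TKO1 and TKO2, whose relation to each other the labels do not state. WT is the parental KMS11 with both alleles. All lines grew in RPMI medium with serum and antibiotics, and no age, treatment or time differed by label. NTKO is a single line, so its genotype and the history of that line cannot be told apart. Nothing states that the 3 arrays of a line came from separate cultures, so the tests rest on array-to-array spread that may be technical.

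RNA polymerase I copies the rRNA genes into a long precursor in the nucleolus. Small nucleolar ribonucleoproteins (snoRNPs) modify that precursor, and a small and a large set of assembly factors fold, cut and pack it into the small and the large ribosomal subunit. Growing cells spend much of their resources on this pathway and many of its genes are known targets of the transcription factor MYC.

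The promoters of these genes are shown first, because the genes were read together across the arrays. RefSeq start sites (assembly GRCh38.p14, 250 bases before to 50 after each start) were on hand for 31 of the 37 genes. The E-box CACGTG, the sequence that MYC with its partner MAX is known to bind, was searched as these letters, which read the same on both strands. It occurred in 14 of 31 members (45.2%), against 13.3% of 8161 tested genes and 8.77% of 27305 genes of the table. Among the 27 tested members with a window it occurred in 11. The list was drawn up as typical MYC-driven growth genes, so its share of E-boxes is not independent of that choice. Of its 15 matches 11 lay after the start site. The stretches below run from 100 bases before to 30 bases after the start, 5′ to 3′ on the strand of the gene, with an E-box in capitals. The first 4 hold one, near the start for FBL, RRP9 and PNO1 and 64 bases before it for LYAR. NOP56 and GRWD1 hold none in the whole window. The 31 members had 38 windows, as a gene can have more than 1 start site. The first window of a gene is shown, but for LYAR one was taken that holds the E-box.
FBL (chr19:39846350-39846479, minus strand): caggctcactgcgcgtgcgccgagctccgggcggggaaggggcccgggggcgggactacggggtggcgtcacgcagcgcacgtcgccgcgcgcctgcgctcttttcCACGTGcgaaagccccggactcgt
RRP9 (chr3:51941875-51942004, minus strand): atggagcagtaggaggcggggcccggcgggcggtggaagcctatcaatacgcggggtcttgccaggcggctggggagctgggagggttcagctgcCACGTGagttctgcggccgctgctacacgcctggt
PNO1 (chr2:68157788-68157917, plus strand): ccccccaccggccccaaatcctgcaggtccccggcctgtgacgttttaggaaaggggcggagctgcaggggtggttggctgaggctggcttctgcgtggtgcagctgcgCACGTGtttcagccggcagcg
LYAR (chr4:4289992-4290121, minus strand): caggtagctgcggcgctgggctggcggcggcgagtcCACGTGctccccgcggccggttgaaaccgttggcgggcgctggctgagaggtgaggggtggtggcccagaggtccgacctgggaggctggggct
NOP56 (chr20:2652532-2652661, plus strand): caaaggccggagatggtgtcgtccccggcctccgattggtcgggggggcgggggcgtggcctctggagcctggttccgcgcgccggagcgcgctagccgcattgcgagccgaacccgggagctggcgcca
GRWD1 (chr19:48445883-48446012, plus strand): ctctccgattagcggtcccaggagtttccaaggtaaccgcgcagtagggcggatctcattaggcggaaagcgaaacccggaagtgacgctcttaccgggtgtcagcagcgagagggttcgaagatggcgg
Further palindromes were searched in the same windows on both strands. GCGCA followed by its reverse complement, which resembles the NRF1 site, lay in 3 of 31 members (DKC1, MYBBP1A and NOB1; 9.68%), against 2.87% of tested genes and 1.52% of all genes. TCTCG followed by its reverse complement lay in NOP14 alone (3.23%), against 1.14% of tested genes and 0.505% of all genes. A match is a run of letters and not a measured binding site.

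Arrays are called by line and replicate number. NTKO 1 and NTKO 3 correlated at 0.994 over all tested genes, whereas NTKO 2 correlated with them at 0.941 to 0.944 and with the WT arrays at 0.973 to 0.978. Within the other lines the correlations were 0.985 to 0.995. NTKO 2 therefore stood apart from the arrays that share its label, and values are given array by array and with and without it. It was singled out on these same data, so counts and p-values without NTKO 2 follow that choice. They describe NTKO 1 and 3 and are not a test of the line. NSD2, the targeted gene, measured 6.09, 6.29 and 6.43 log2 units on NTKO 1, 2 and 3, 5.44 to 6.07 on the TKO arrays and 6.18 to 6.56 on the WT arrays, and was higher in NTKO than in TKO by 0.59 ± 0.17 (SE; adjusted p = 0.0142 by limma). Whether its probe lies in the part of the gene that was disrupted was not examined. CD38, a plasma cell surface enzyme, measured 7.45, 7.60 and 7.52 on the NTKO arrays, 4.44 to 4.78 on the TKO arrays, where it was detected on none, and 5.48 to 5.84 on the WT arrays. On this gene NTKO 2 measured like NTKO 1 and 3. Of the plasma cell and myeloma markers 9 of 10 passed the detection filter (FGFR3 above 13 on every array), CD38 through the NTKO and WT arrays only. Of T and NK cell markers 1 of 8 passed the detection filter (NCAM1), of myeloid 1 of 8 (CD68), of stromal 2 of 8 (PDGFRB and ACTA2) and of erythroid 1 of 6 (HBB). Mean background-subtracted intensity was 181 to 300 per array and 8832 to 9638 genes were detected.

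Member levels were low on NTKO 1 and NTKO 3 and somewhat high on NTKO 2. The quantity used is the log2 intensity minus the mean of the 3 WT arrays for the same gene, so that 1 unit is a 2-fold difference. The median over the 32 members was −0.89 on NTKO 1, 0.38 on NTKO 2 and −0.81 on NTKO 3. It lay between −0.16 and 0.04 on the 6 TKO arrays and between −0.03 and 0.04 on the WT arrays, and the median over all 9857 genes stayed between −0.03 and 0.03 on every array. On NTKO 1 all 32 members lay below their WT mean, 13 of them at least 2-fold, and the counts on NTKO 3 were the same. On NTKO 2 there were 29 above, 2 below and 1 at the WT mean to 2 decimals. The whole culture was sampled as bulk RNA, so fewer cells with full levels and less RNA in each cell cannot be told apart.

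**Figure D1:**
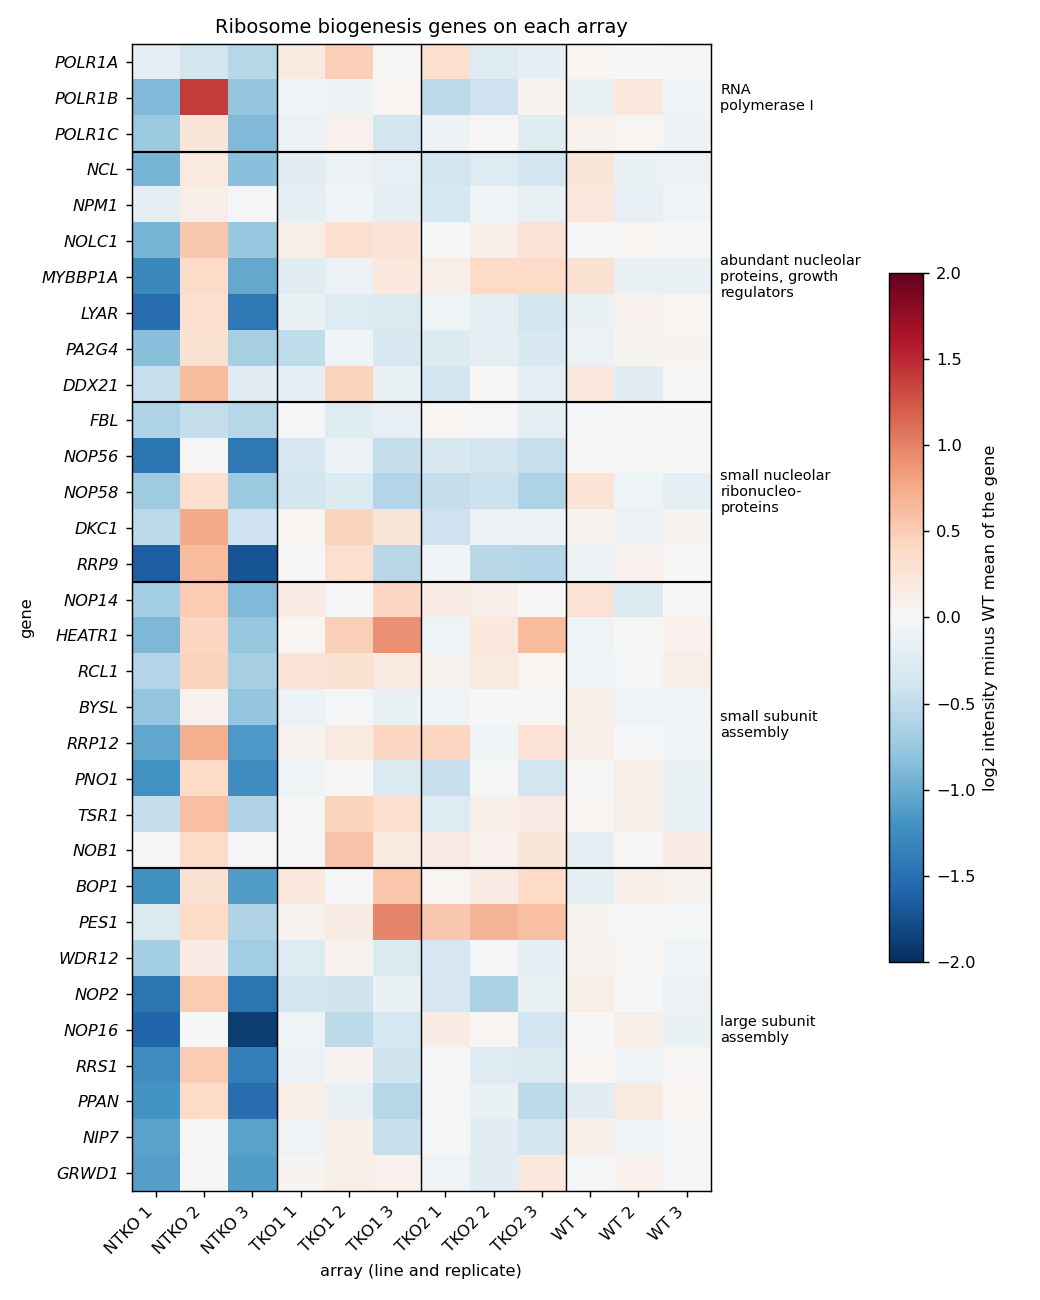
Log2 intensity of each member (rows, grouped by role) on each of the 12 arrays (columns), minus the mean of that gene on the 3 WT arrays; blue is lower and red higher than WT. NTKO 1 and NTKO 3 are blue over nearly the whole list (medians −0.89 and −0.81), whereas NTKO 2 is mostly pale red (median 0.38).

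Set against the 9 TKO and WT arrays together, 29 of 32 members (90.6%) lay below all 9 on NTKO 1 and 28 (87.5%) on NTKO 3. Of all genes tested, 27.1% lay below all 9 on NTKO 1 and 25.6% on NTKO 3. On NTKO 2 the members went the other way, with 19 (59.4%) above all 9 arrays, against 14.8% of all genes, and 2 (6.25%) below, against 16.5%. No member lay above all 9 on NTKO 1 or NTKO 3, where 22.6% and 21.8% of all genes did. The absolute difference between NTKO 1 and NTKO 3 had a median of 0.11 over the members and reached 0.39 at most (0.14 over all genes). Between NTKO 2 and its line mates the member median was 1.16 with NTKO 1 and 1.18 with NTKO 3, where all genes gave 0.42 and 0.39. The SD over the 3 arrays of a line, as a median over members, was 0.69 in NTKO, 0.21 in TKO1, 0.15 in TKO2 and 0.11 in WT, beside 0.26, 0.19, 0.19 and 0.14 over all genes.

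**Figure D2:**
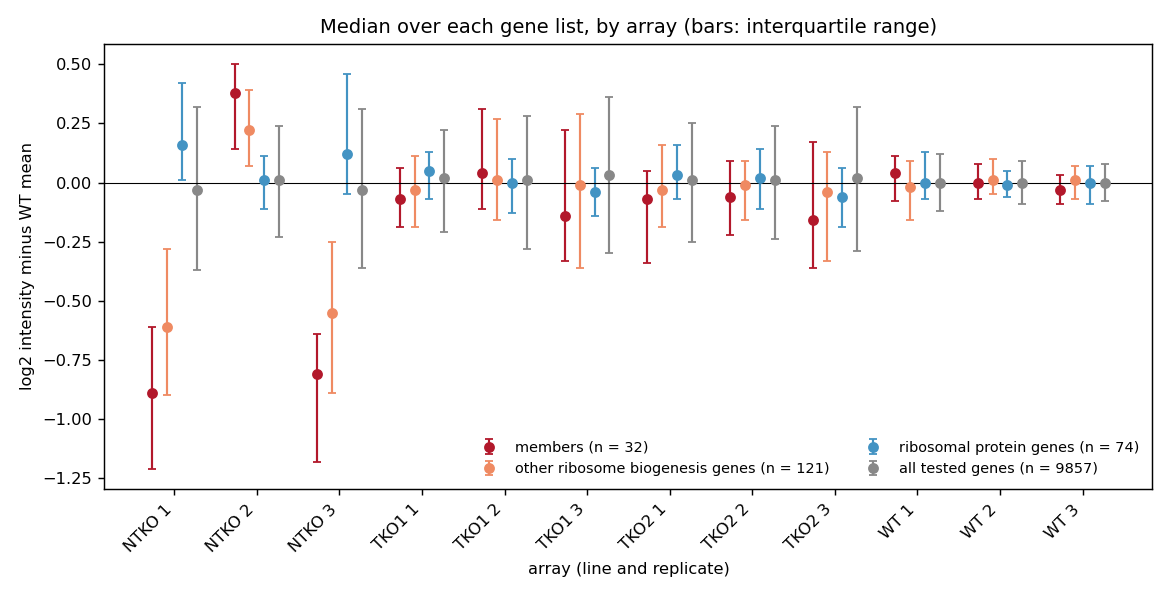
Median log2 intensity minus WT mean (points) and the interquartile range over the genes (bars) on each array, for the members, other ribosome biogenesis genes, ribosomal protein genes and all tested genes. Both biogenesis lists lie below 0 on NTKO 1 and NTKO 3 and above 0 on NTKO 2, while ribosomal protein genes lie slightly above 0 on NTKO 1 and NTKO 3.

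The question of the study is what the overexpressed MMSET allele does to gene expression, and NTKO against TKO is the comparison made for it. With all 3 NTKO arrays, 7 of 32 members (21.9%) were lower in NTKO than in TKO and 0 were higher, at an adjusted p under 0.05 in a limma fit over 9857 genes. Of all genes 14.3% were lower and 15.5% higher, so the share of members called lower was not far from the background. The 7 were the RNA polymerase I subunit POLR1A, fibrillarin (FBL), HEATR1, BOP1, PES1, NOP16 and GRWD1. The median difference over the members was −0.48, and 28 of the 32 differences were below 0. Over all genes the median was −0.04, and 5336 of 9857 differences were below 0. Without NTKO 2, 28 of 32 members (87.5%) were lower and 0 higher, against 25.1% of all genes lower. The median difference was then −0.91, beside −0.05 over all genes. The 4 members not called then were NPM1, DDX21, NOB1 and NOP58. The median SE of a member's difference was 0.22 with NTKO 2 and 0.14 without it. Leaving out the array that differed most from its line mates lowered all 32 differences and also the median SE. The larger count follows from that choice. Leaving out NTKO 3 instead gave 1 member called. With no filter on dim probes 4 members were called (14.3% of all genes in either direction), with the NTKO and TKO arrays alone 3 (24.1%) and with the methods' t-test after Benjamini-Hochberg adjustment 1 (17.9%). POLR1A, HEATR1 and NOP16 were not called under any of these settings (adjusted p of 0.0519 to 0.179).

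**Figure D3:**
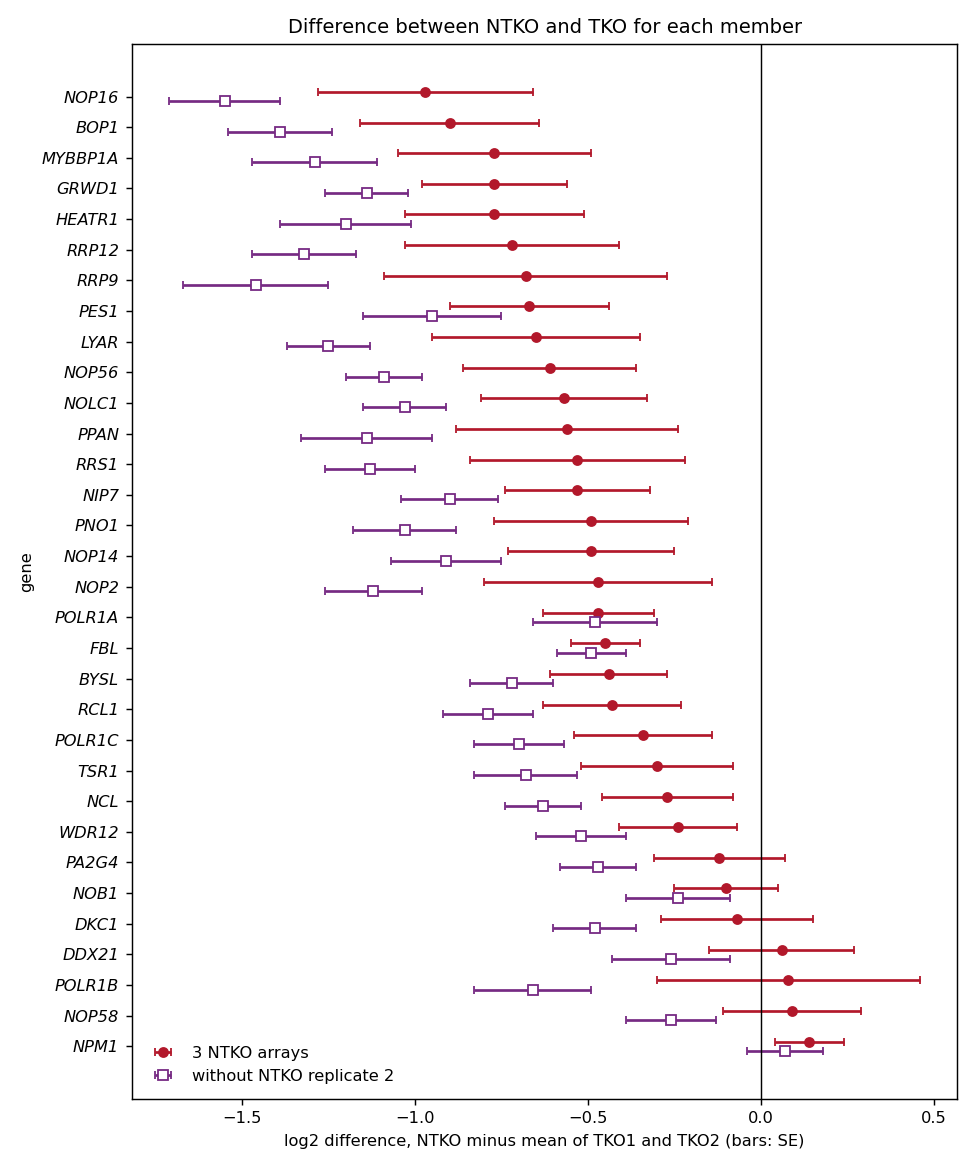
Log2 difference between NTKO and TKO (positive where NTKO is higher; TKO is the mean of its 2 lines) for each member with all 3 NTKO arrays (filled circles) and without NTKO 2 (open squares); bars are the SE of the fit. The open squares lie left of the circles for all 32 members, closely so for FBL and POLR1A, and the medians are −0.91 and −0.48.

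The 3 members of RNA polymerase I are subunits of the enzyme that makes rRNA. POLR1C, which RNA polymerase III shares, measured 9.07, 10.06 and 8.93 in NTKO, 9.70, 9.90 and 9.45 in TKO1, 9.72, 9.84 and 9.58 in TKO2 and 9.89, 9.85 and 9.71 in WT. NTKO 1 and 3 lay below all other arrays and NTKO 2 above them. The NTKO minus TKO difference was −0.34 ± 0.20 (SE; adjusted p = 0.218, limma) and −0.70 ± 0.13 without NTKO 2 (adjusted p = 0.000396). POLR1A, the catalytic subunit, was dim and detected on 1 of 3 NTKO, 4 of 6 TKO and 3 of 3 WT arrays. It measured 5.09, 4.92 and 4.71 in NTKO, 5.47, 5.76 and 5.31 in TKO1, 5.60, 5.03 and 5.09 in TKO2 and 5.33, 5.29 and 5.24 in WT. Its lower level in NTKO (−0.47 ± 0.16, adjusted p = 0.036) thus rests on signals at the edge of detection, and the NTKO and TKO2 values overlap. POLR1B, the second largest subunit, was detected on 1 of 3 NTKO, 5 of 6 TKO and 3 of 3 WT arrays. It measured 4.72, 7.0 and 4.82 in NTKO, 5.54, 5.50 and 5.64 in TKO1, 5.06, 5.18 and 5.67 in TKO2 and 5.46, 5.80 and 5.53 in WT. NTKO 2 was thus the highest of the 12 arrays by a wide margin and NTKO 1 and 3 the lowest. The difference of 0.08 ± 0.38 (adjusted p = 0.896) became −0.66 ± 0.17 without NTKO 2 (adjusted p = 0.00375).

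Among abundant nucleolar proteins and growth regulators none of 7 tested members was called with all arrays, and 5 were lower without NTKO 2. Of all genes 14.3% and 25.1% were lower in these 2 fits. Nucleolin (NCL), an RNA-binding protein of the nucleolus, measured 11.34, 12.46 and 11.43 in NTKO, 12.06, 12.16 and 12.10 in TKO1, 11.89, 12.01 and 11.88 in TKO2 and 12.52, 12.14 and 12.15 in WT. NTKO 1 and 3 were below the other 10 arrays, and NTKO 2 was topped only by WT 1. The NTKO minus TKO difference of NCL was −0.27 ± 0.19 (adjusted p = 0.297) and −0.63 ± 0.11 without NTKO 2 (adjusted p = 0.000153, limma). A second, dimmer NCL probe gave −0.54 and −0.98. Nucleophosmin (NPM1), a nucleolar histone chaperone and the brightest member, had no such pattern. It measured 13.30, 13.60 and 13.44 in NTKO, 13.29, 13.40 and 13.30 in TKO1, 13.12, 13.40 and 13.33 in TKO2 and 13.70, 13.32 and 13.41 in WT, and these values overlap throughout. Its difference was 0.14 ± 0.10 (adjusted p = 0.324) and 0.07 ± 0.11 without NTKO 2 (adjusted p = 0.628). The 95% interval of the difference with all arrays was −0.08 to 0.36.

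NOLC1, a chaperone of snoRNPs, measured 8.43, 9.90 and 8.61 in NTKO, 9.48, 9.69 and 9.62 in TKO1, 9.37, 9.47 and 9.65 in TKO2 and 9.33, 9.40 and 9.36 in WT. MYBBP1A, a nucleolar MYB-binding protein, measured 5.20, 6.88 and 5.47 in NTKO, 6.27, 6.38 and 6.70 in TKO1, 6.63, 6.89 and 6.87 in TKO2 and 6.80, 6.34 and 6.34 in WT. LYAR, a zinc finger protein of the nucleolus whose promoter is shown above, measured 8.78, 10.63 and 8.87 in NTKO, 10.17, 10.04 and 10.00 in TKO1, 10.21, 10.11 and 9.93 in TKO2 and 10.17, 10.39 and 10.33 in WT. In all 3 genes NTKO 1 and NTKO 3 were the lowest of the 12 arrays. NTKO 2 was the highest array for NOLC1 and LYAR and lay within the TKO values for MYBBP1A. The difference of MYBBP1A, −0.77 ± 0.28, just missed the threshold (adjusted p = 0.0523) and was −1.29 ± 0.18 without NTKO 2 (adjusted p = 1.71e-05). NOLC1 gave −0.57 ± 0.24 (adjusted p = 0.0854) and −1.03 ± 0.12 without NTKO 2 (adjusted p = 2.85e-06). LYAR gave −0.65 ± 0.30 (adjusted p = 0.124) and −1.25 ± 0.12 without NTKO 2 (adjusted p = 2.27e-07), and its other probe gave −0.62 and −1.22. PA2G4, a growth regulator that binds ribosomal precursors, and the helicase DDX21 had differences of −0.12 and 0.06 with all arrays.

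Of the 5 snoRNP members FBL alone was called with all arrays (20%, beside 14.3% of all genes lower). Without NTKO 2, 4 of the 5 were lower, beside 25.1% of all genes. Fibrillarin is the methyltransferase of the box C/D snoRNPs, and its E-box lies 6 bases after the start in the stretch above. FBL measured 11, 11.14 and 11.05 in NTKO, 11.59, 11.38 and 11.46 in TKO1, 11.66, 11.58 and 11.42 in TKO2 and 11.60, 11.62 and 11.63 in WT. All 3 NTKO arrays, NTKO 2 included, lay below all 9 others, which held for no other member and for 5.02% of all genes. No member had all 3 above (3.74% of all genes). Its difference was −0.45 ± 0.10 (adjusted p = 0.00365), or 1.36-fold lower, and −0.49 ± 0.10 without NTKO 2 (adjusted p = 0.000883). Centring each array on its median instead of quantile normalising gave −0.35 and ended the call (adjusted p = 0.18).

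NOP56 and NOP58 are the paired core proteins of the same particles. NOP56 measured 10.40, 11.87 and 10.42 in NTKO, 11.51, 11.73 and 11.37 in TKO1, 11.54, 11.47 and 11.38 in TKO2 and 11.84, 11.83 and 11.86 in WT. NTKO 1 and 3 were about 1 unit below every other array, and NTKO 2 lay with WT, just above all TKO arrays. The difference of NOP56 was −0.61 ± 0.25 (adjusted p = 0.0786) and −1.09 ± 0.11 without NTKO 2 (adjusted p = 3.55e-07). NOP58 measured 9.85, 10.88 and 9.81 in NTKO, 10.18, 10.28 and 9.96 in TKO1, 10.07, 10.13 and 9.93 in TKO2 and 10.82, 10.47 and 10.37 in WT, so TKO lay nearer to NTKO 1 and 3 here than for NOP56. RRP9, which belongs to the U3 snoRNP that guides the first cuts of the precursor, measured 5.14, 7.43 and 5.06 in NTKO, 6.82, 7.11 and 6.23 in TKO1, 6.73, 6.23 and 6.21 in TKO2 and 6.69, 6.88 and 6.80 in WT. The spread among NTKO arrays of RRP9 (7.43 on NTKO 2 against 5.06 on NTKO 3) left its difference at −0.68 ± 0.41 (adjusted p = 0.232), and without NTKO 2 it was −1.46 ± 0.21 (adjusted p = 2.13e-05), or 2.75-fold lower. Dyskerin (DKC1), the pseudouridine synthase of the box H/ACA snoRNPs, gave −0.07 ± 0.22 and −0.48 ± 0.12.

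**Figure D4:**
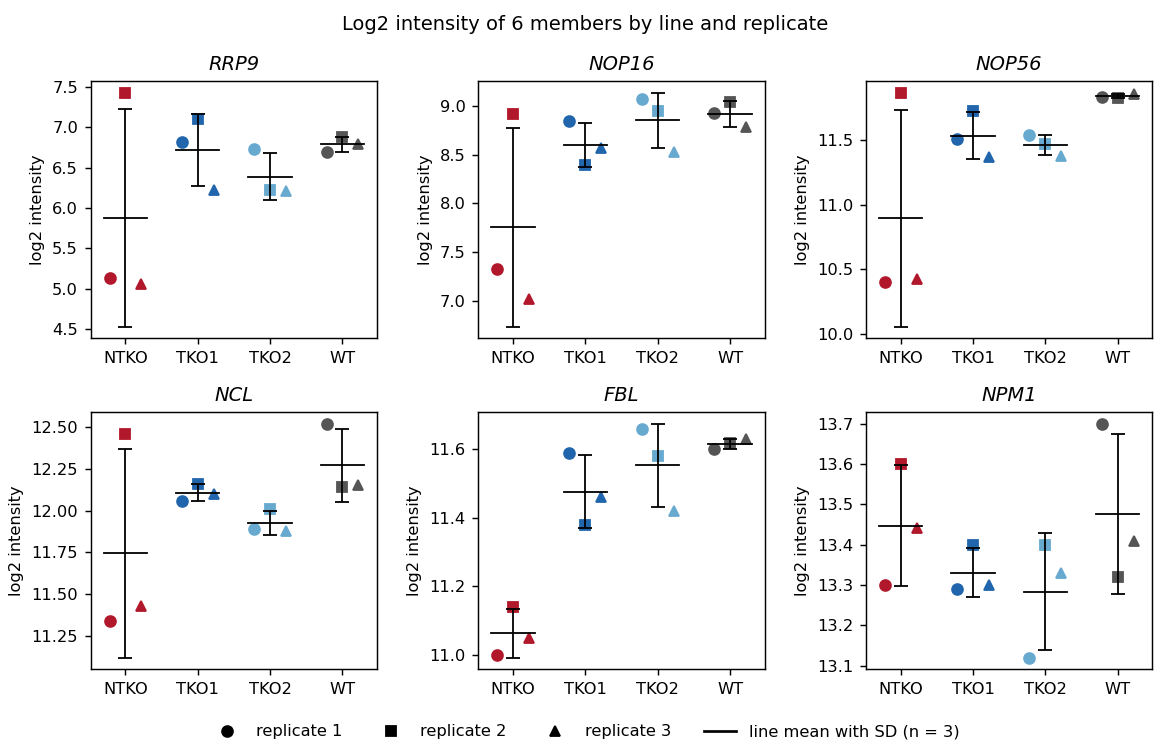
Log2 intensity of RRP9, NOP16, NOP56, NCL, FBL and NPM1 by line, 1 symbol per replicate, with the line mean and SD (n = 3). NTKO replicate 2 (square) lies 1 or more units above NTKO replicates 1 and 3 for the first 4 genes, lies with them for FBL, and NPM1 overlaps between all lines.

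Of 8 tested factors of small subunit assembly 1 was called lower with all arrays (12.5%, near the 14.3% of all genes). Without NTKO 2 there were 7 (87.5%, beside 25.1%), and all 8 differences with all arrays were below 0. HEATR1, which also supports rRNA transcription, measured 8.77, 10.10 and 8.90 in NTKO, 9.71, 10.14 and 10.58 in TKO1, 9.58, 9.87 and 10.29 in TKO2 and 9.58, 9.66 and 9.75 in WT. The difference was −0.77 ± 0.26 (adjusted p = 0.0394) and −1.20 ± 0.19 without NTKO 2 (adjusted p = 8.1e-05). NTKO 2 lay inside the TKO values of HEATR1 and above its WT values. RRP12 measured 7.38, 9.13 and 7.27 in NTKO, 8.49, 8.60 and 8.83 in TKO1, 8.85, 8.34 and 8.72 in TKO2 and 8.53, 8.40 and 8.34 in WT, with NTKO 2 the highest array. This factor, which helps to export the precursors, gave −0.72 ± 0.31 (adjusted p = 0.099) and −1.32 ± 0.15 without NTKO 2 (adjusted p = 1.52e-06). NOP14 measured 7.17, 8.35 and 6.97 in NTKO, 8.0, 7.81 and 8.26 in TKO1, 8.01, 7.95 and 7.85 in TKO2 and 8.14, 7.56 and 7.84 in WT. The same 2 arrays were lowest for NOP14 and NTKO 2 was highest, with −0.49 ± 0.24 (adjusted p = 0.149) and −0.91 ± 0.16 without NTKO 2 (adjusted p = 0.000198).

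The other 5 small subunit factors gave differences of −0.49 (PNO1), −0.44 (BYSL), −0.43 (RCL1), −0.30 (TSR1) and −0.10 (NOB1) with all arrays. Without NTKO 2 PNO1, whose promoter is shown above, reached −1.03 ± 0.15 (adjusted p = 2.18e-05). NOB1, the nuclease that makes the last cut of the small subunit rRNA in the cytoplasm, stayed at −0.24 ± 0.15 (adjusted p = 0.198), and measured 7.97, 8.40 and 7.99 in NTKO, 8.02 to 8.58 in TKO and 7.83 to 8.18 in WT. NOB1 therefore overlapped between all lines.

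The large subunit factors had the lowest median of the 5 groups on NTKO 1 (−1.20) and NTKO 3 (−1.11), but not on NTKO 2 (0.30, beside 0.24 for the RNA polymerase I group). The medians on NTKO 1, 2 and 3 were −0.73, 0.45 and −0.77 for the small subunit factors. In NTKO against TKO 4 of 9 large subunit factors were lower with all arrays and 9 of 9 without NTKO 2, beside 14.3% and 25.1% of all genes. NOP16, a factor of precursor particles, had the largest difference of any member. It measured 7.33, 8.92 and 7.02 in NTKO, 8.84, 8.39 and 8.57 in TKO1, 9.07, 8.95 and 8.53 in TKO2 and 8.93, 9.04 and 8.78 in WT. NTKO 1 and 3 were over 1 unit below every other array, and NTKO 2 lay among the TKO and WT values. NOP16 gave −0.97 ± 0.31 (adjusted p = 0.03), or 1.96-fold lower, and −1.55 ± 0.16 without NTKO 2 (adjusted p = 7e-07), or 2.93-fold lower.

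BOP1, PES1 and WDR12 form the PeBoW complex, which is needed to cut the precursor of the large subunit. BOP1 measured 9.42, 10.95 and 9.54 in NTKO, 10.86, 10.62 and 11.21 in TKO1, 10.69, 10.81 and 11.05 in TKO2 and 10.46, 10.77 and 10.72 in WT. The difference of BOP1 was −0.90 ± 0.26 (adjusted p = 0.0195) and −1.39 ± 0.15 without NTKO 2 (adjusted p = 8.23e-07). PES1 measured 6.03, 6.72 and 5.73 in NTKO, 6.39, 6.47 and 7.30 in TKO1, 6.87, 7.01 and 6.93 in TKO2 and 6.38, 6.29 and 6.31 in WT, so it was lowest on NTKO 1 and 3, and every WT value lay below every TKO value. It gave −0.67 ± 0.23 against TKO (adjusted p = 0.0355). WDR12 gave a smaller difference, −0.24 ± 0.17 (adjusted p = 0.32), and −0.52 ± 0.13 without NTKO 2 (adjusted p = 0.00287). The 3 subunits of this complex were thus all lower on NTKO 1 and 3, by unequal amounts.

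GRWD1, a histone-binding WD-repeat protein of the nucleolus whose promoter window holds no E-box, measured 8.67, 9.78 and 8.66 in NTKO, 9.82, 9.89 and 9.86 in TKO1, 9.70, 9.56 and 9.98 in TKO2 and 9.73, 9.85 and 9.73 in WT. NTKO 1 and 3 were well below the rest, with NTKO 2 inside the TKO and WT values, and the difference was −0.77 ± 0.21 (adjusted p = 0.0113). NOP2, an rRNA methyltransferase, and the assembly factors RRS1, PPAN and NIP7 gave −0.47, −0.53, −0.56 and −0.53 with all arrays and −1.12, −1.13, −1.14 and −0.90 without NTKO 2.

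At probe level the 32 members had 38 kept probes, of which 7 were lower and 0 higher in NTKO than in TKO, against 13.8% lower among 15596 probes. Without NTKO 2 there were 33, against 24% of all probes. For the 6 members with more than 1 kept probe (LYAR, NCL, NOP2, NOP56, POLR1B and WDR12) the probes agreed unequally. Without NTKO 2 those of NOP2 gave −1.12 and −1.33. The second probe of WDR12 gave −0.31 without NTKO 2 and was not called (adjusted p = 0.0727, limma over probes). The second probe of POLR1B gave −0.13 with all arrays, where the first gave 0.08.

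Against WT, where both alleles are present, NTKO was lower for 1 member, FBL (−0.55 ± 0.12, adjusted p = 0.0101), and higher for 0, against 4.7% of all genes lower and 3.5% higher. That call was lost with median centring (adjusted p = 0.0685) and with the NTKO and WT arrays alone (adjusted p = 0.0612). Without NTKO 2, 27 members were lower and 0 higher, against 18.7% and 17.2% of all genes, and the median difference was −0.83. The 5 not called were POLR1A, NPM1, DDX21, NOB1 and PES1. NTKO minus TKO and NTKO minus WT share the NTKO arrays, so the comparisons are not independent.

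TKO against WT asks what loss of the overexpressed allele does in the parental background, and it gave 0 of 32 members called by limma, against 11.1% of all genes lower and 6.6% higher. At an unadjusted p under 0.05 there were 1 higher (PES1) and 1 lower (NOP58), where 29.8% of all genes passed in either direction. The methods' t-test gave 2 members after Benjamini-Hochberg adjustment (17.7% of all genes) and 0 at the study's own threshold (11.3%), and a fit of the TKO and WT arrays alone called 4 (26.1%). Member differences ran from −0.46 to 0.51 with a median of −0.11. NOP58 had the lowest, −0.46 ± 0.20 (adjusted p = 0.139), and PES1 the highest, 0.51 ± 0.23 (adjusted p = 0.146). The second probe of WDR12, which does not stand for the gene, gave −0.50 (adjusted p = 0.0506, limma over probes), where the first gave −0.17. Without NTKO 2 that second probe had an adjusted p of 0.00382. All 6 TKO arrays lay below all 3 WT arrays for NOP56, NOP58 and NOP2, which 14.2% of all genes did, and above them for PES1, which 11.2% of all genes did. In the snoRNP group 4 of 5 differences were below 0 (median −0.24), in the small subunit group 2 of 8 (median 0.15). The fit without NTKO 2, in which the SE of NOP58 was 0.12 and not 0.20, called 4 members lower in TKO (PA2G4, NOP56, NOP58 and NOP2, with differences of −0.28 to −0.46) and 1 higher (PES1). Background calls in that fit were 15.6% lower and 12.6% higher.

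No member was called between TKO1 and TKO2 by limma, against 0.568% of all genes higher and 0.294% lower in TKO1, and 0 passed at an unadjusted p under 0.05, where 7.65% of all genes did. Member differences ran from −0.35 (MYBBP1A) to 0.45 (DKC1, adjusted p = 0.784), and the SE of DKC1 was 0.25. Without NTKO 2, which is in neither line but enters the shared estimate of the spread, that SE was 0.12 and DKC1 had an adjusted p of 0.0567.

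The remainder of the pathway was read from a list of 129 further ribosome biogenesis genes, 121 of them tested. With all arrays 22 (18.2%) were lower and 5 (4.13%) higher in NTKO than in TKO, beside 14.3% and 15.5% of all genes, with a median difference of −0.27. Without NTKO 2 there were 82 lower (67.8%) and 8 higher (6.61%), beside 25.1% and 23.9%. On NTKO 1, 90 of 121 (74.4%) lay below all 9 TKO and WT arrays and on NTKO 3, 85 (70.2%), whereas on NTKO 2, 46 (38%) lay above all 9. The shares of all genes were 27.1% and 25.6% below all 9 on NTKO 1 and 3, and 14.8% above on NTKO 2. UBTF, the factor that keeps rRNA genes open for RNA polymerase I, measured 5.80, 7.68 and 5.73 in NTKO, 7.51 to 7.89 in TKO and 7.06 to 7.25 in WT. It had the largest difference of the list (−1.31 ± 0.32, adjusted p = 0.00689), with NTKO 2 at the level of TKO. MRTO4, a large subunit assembly factor, gave −0.96 ± 0.29 (adjusted p = 0.0242), and the helicase DDX24 gave −0.96 ± 0.16 (adjusted p = 0.000303). With the methods' t-test after Benjamini-Hochberg adjustment UBTF and MRTO4 lost their calls (adjusted p = 0.0788 and 0.119) and DDX24 kept its call. DDX24 measured 9.24, 10.05 and 9.37 in NTKO, 10.44 to 10.63 in TKO and 9.63 to 9.86 in WT, so all 3 NTKO arrays lay below TKO but NTKO 2 lay above WT. By limma DDX24 was higher in TKO than in WT (0.79 ± 0.16, adjusted p = 0.00217). Its NTKO minus WT difference was only −0.17 ± 0.18 (adjusted p = 0.586).

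Not all of the pathway was lower. POLR1D, a subunit that RNA polymerases I and III share, was higher in NTKO than in TKO (0.79 ± 0.14, adjusted p = 0.000567) and measured 11.90, 11.41 and 12 in NTKO, 10.77 to 11.28 in TKO and 11.14 to 11.28 in WT, with no overlap. The exosome subunit EXOSC8 (0.73 ± 0.22, adjusted p = 0.0207) and RSL24D1 (0.56 ± 0.14, adjusted p = 0.00799), a late large subunit factor, were higher too. Their NTKO 2 values (9.07 and 11.96) lay inside the TKO values. Both calls were lost with the methods' t-test after Benjamini-Hochberg adjustment (adjusted p = 0.0828 and 0.0599).

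The ribosomal proteins, which these factors build into subunits, were not low on NTKO 1 and 3. Of 74 tested, 14 (18.9%) were higher and 0 lower in NTKO than in TKO with all arrays, a share of higher calls near the 15.5% of all genes, and the median difference was 0.08. Without NTKO 2, 26 (35.1%) were higher and 1 lower, beside 23.9% of all genes higher. On NTKO 1 and on NTKO 3, 33 of 74 (44.6%) lay above all 9 TKO and WT arrays, beside 22.6% and 21.8% of all genes. RPL14 (0.87 ± 0.24, adjusted p = 0.0133), RPL34 (0.78 ± 0.21, adjusted p = 0.0135) and RPL7 (0.68 ± 0.14, adjusted p = 0.002) had the largest differences. Averaging the probes of RPL34 gave 0.32 and ended its call (adjusted p = 0.198). Without NTKO 2 RPL34 stood at 0.50 against TKO and at −0.33 against WT (adjusted p = 0.246). Ribosomal protein genes have many near-identical pseudogenes, so what a single probe detects is uncertain for them.

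Genes outside the pathway were read on the same arrays. MYC measured 12.15, 12.32 and 12.21 in NTKO, 11.42 to 11.97 in TKO and 12.13 to 12.25 in WT, and was higher in NTKO than in TKO by 0.54 ± 0.12 (adjusted p = 0.00274). All 3 NTKO arrays thus lay in or near the WT range of MYC, also NTKO 1 and 3, where the members were low. Only MYC RNA was measured here and not its protein, and the part of MYC in the member levels was not tested. Of 14 tested genes of the MYC network 5 were higher (MYC, MYCN, MXD1, MXD4 and MXI1) and 3 lower (TFRC, ODC1 and CAD). These shares were 35.7% and 21.4%, beside 15.5% and 14.3% of all genes. Without NTKO 2 there were 6 higher and 5 lower (42.9% and 35.7%, beside 23.9% and 25.1% of all genes). MXD1 had an adjusted p of 0.0461 with all arrays and lost its call in 5 of 10 settings other than leaving out an array (adjusted p of 0.0527 to 0.156). ODC1, CAD and MXD4 lost theirs with the methods' t-test after Benjamini-Hochberg adjustment (adjusted p = 0.0933, 0.108 and 0.0508). MYC, MYCN, MXI1 and TFRC kept theirs in these settings. The transferrin receptor TFRC, a known MYC target, measured 8.88, 10.92 and 8.86 in NTKO, 11.03 to 11.60 in TKO and 10.89 to 11 in WT, low on the same 2 arrays as the members.

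Stress genes were high on NTKO 1 and NTKO 3, where the members were low. DDIT3 (CHOP) measured 11.63, 7.58 and 11.36 in NTKO, 7.61 to 9.09 in TKO and 7.87 to 8.11 in WT. ATF3 measured 10.21, 6.31 and 10.39 in NTKO, 5.75 to 7.20 in TKO and 6.05 to 6.32 in WT, and TRIB3, an inhibitor of the kinase AKT, measured 11.54, 8.44 and 11.49 in NTKO, 8.06 to 8.85 in TKO and 8.23 to 8.31 in WT. NTKO 1 and 3 were thus far above all other arrays and NTKO 2 was at or near the level of WT. The median of 10 genes of the ATF4 and CHOP response, minus WT, was 3.03 on NTKO 1, −0.22 on NTKO 2 and 2.99 on NTKO 3. With all arrays 2 of the 10 (ATF3 and TRIB3) were higher in NTKO than in TKO (20%, near the 15.5% of all genes). Without NTKO 2 all 10 of 10 were higher, against 23.9% of all genes. The calls of ATF3 and TRIB3 were lost with no filter on dim probes (adjusted p = 0.0755 and 0.0552) and with the methods' t-test (adjusted p = 0.125 and 0.0916), and DDIT3, not called with all arrays (adjusted p = 0.0806), gained a call in 3 settings other than leaving out an array. The part of this response in the member levels was not tested.

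**Figure D5:**
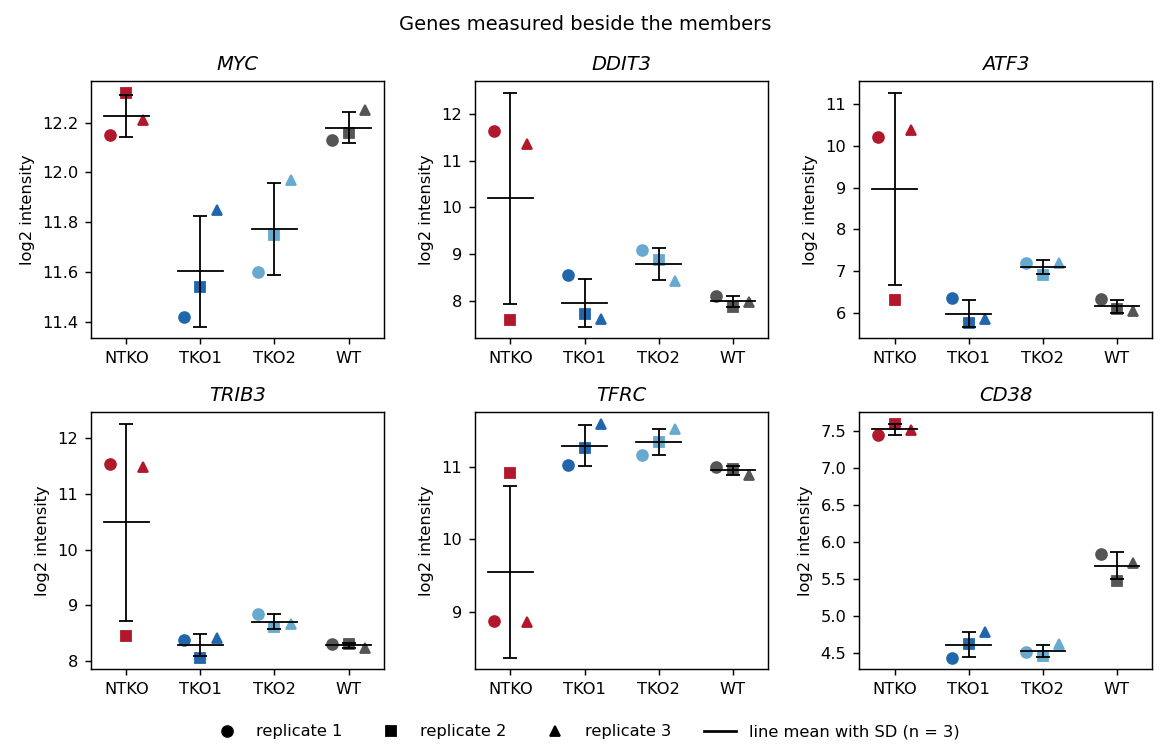
Log2 intensity of MYC, DDIT3, ATF3, TRIB3, TFRC and CD38 by line, 1 symbol per replicate, with the line mean and SD (n = 3). NTKO replicates 1 and 3 stand apart from replicate 2 for DDIT3, ATF3, TRIB3 and TFRC, whereas the 3 lie close together for MYC (12.15 to 12.32) and CD38 (7.45 to 7.60).

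Levels were also set side by side for members with and without an E-box. For 11 tested members with an E-box in the promoter window the median difference from WT was −0.78 on NTKO 1, 0.39 on NTKO 2 and −0.88 on NTKO 3. For 16 without one it was −0.86, 0.21 and −0.78.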

How the data were processed

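Labels gave 3 replicate arrays each for NTKO, TKO1, TKO2 and WT. The methods describe 6 replicates per side, so only the labelled groups were used. The authors exported the scans with GenomeStudio (version not given in the sources used here) and that deposited export holds a background-subtracted intensity per probe on a linear scale, and the deposited detection p-value beside it. A second deposited table of intensity values, normalised by the authors, served as an alternative.

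The export was corrected and quantile normalised with neqc (limma 3.58.1, R 4.3.3; offset 16) and taken to log2. Of 48803 probes the 15596 with a detection p-value below 0.05 on every array of 1 or more lines were used. Probes were named through the platform annotation and RefSeq (27578 with 1 gene, 13 with several, 21212 with none). The kept probe with the highest mean stood for its gene, which gave 9857 genes. All 12 arrays were fitted with 4 line means (lmFit, eBayes with trend and robust), and p-values were two-sided and Benjamini-Hochberg adjusted over all genes. The code was tested on simulated data. The number of arrays limits the precision, and no slide or date was used here.

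The members and lists were chosen with earlier results of these data known. Array values are given for the 3 members of each role group with the largest NTKO minus TKO difference and for NCL, NPM1 and FBL. PNO1, NOB1, NOP58, PES1 and TFRC and CD38 values were added after they were seen. Of the other ribosome biogenesis and the ribosomal protein genes up to 3 called per direction are named, and the called MYC network genes were named after their values were seen. Alternatives changed background correction, normalisation, table, filter, probe choice, samples, block, test (the methods' t-test) and left out each array.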

Additional observations from a re-analysis of the deposited data

How the results depend on the processing

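Leaving out each array in turn, the members called in NTKO minus TKO ran from 1 (without NTKO 3) to 28 (without NTKO 2), other ribosome biogenesis genes from 5 to 90, ribosomal protein genes from 3 (without NTKO 1) to 27, member probes from 1 to 33, members in NTKO minus WT from 0 to 27 and in TKO minus WT from 0 to 5, and TKO1 minus TKO2 stayed at 0. In NTKO minus TKO the differences of POLR1B (−0.66 to 0.48), PA2G4 (−0.47 to 0.10), DDX21 (−0.26 to 0.28), NOP58 (−0.26 to 0.27) and DKC1 (−0.48 to 0.17) spanned 0, each lowest without NTKO 2, and so did those of NOP14 (−0.01 to 0.28) and GRWD1 (−0.03 to 0.08) in TKO minus WT. Member medians ran from −0.92 to −0.86 on NTKO 1, 0.34 to 0.38 on NTKO 2, −0.86 to −0.79 on NTKO 3, −0.10 to −0.02, 0.02 to 0.09 and −0.16 to −0.05 on TKO1 replicates 1, 2 and 3, and −0.10 to −0.06, −0.08 to −0.02 and −0.18 to −0.08 on those of TKO2. Median centring gave 4 ribosomal protein genes and 2 members in NTKO minus WT, member medians of −0.11 (TKO1 2), −0.35 (TKO1 3), −0.14 (TKO2 2) and −0.44 (TKO2 3), and turned GRWD1 in TKO minus WT to −0.09 and DKC1 in NTKO minus TKO to 0.04. Cyclic loess gave 2 members in NTKO minus WT. No filter on dim probes, which tests more genes, gave 4 members, 2 member probes and 7 ribosomal protein genes. Fitting the compared lines alone, which are fewer arrays, gave 3 members, 3 member probes, 16 other biogenesis genes and 9 ribosomal protein genes in NTKO minus TKO, 0 members in NTKO minus WT and 4 in TKO minus WT (1 higher, 3 lower). The methods' t-test called 1 member, 2 other biogenesis genes and 1 ribosomal protein gene at the study's threshold, and 1, 4 and 4 after Benjamini-Hochberg, with 2 members in TKO minus WT. Averaging the probes of a gene turned POLR1B in NTKO minus TKO to −0.02 and ended the call of RPL34 (0.32). Of 18 same-number pairs of arrays 6 had deviations correlated over 0.1 (−0.14 to 0.50). The highest were TKO1 1 with TKO2 1 and TKO1 3 with TKO2 3 (0.50 each). Pairs of unlike number were not compared, so whether replicate numbers pair the samples was not settled. With the replicate block 8 members were called in NTKO minus TKO, 3 in NTKO minus WT, 0 in TKO minus WT and in TKO1 minus TKO2, with 36 other biogenesis genes, 14 ribosomal protein genes and 8 member probes. POLR1A lost its call in 6 of 9 settings other than leaving out an array. PES1 lost its call with cyclic loess (adjusted p = 0.0535), with the compared lines alone (0.0708) and with the methods' t-test (0.142). Over the named genes and the settings other than leaving out an array, 710 values kept direction and side of the threshold, 39 lost their call, 12 gained one and 3 changed sign. The cause of the other changes was not tested. POLR1A and POLR1B were close to the detection limit, which bounds what their values can show.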
